A study of Mus with 6 samples.

Results

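The genes described here are 10 members of the NRF2 antioxidant pathway, taken by their Ensembl IDs out of the 35304 IDs with read counts in 4T1 cells, a mouse mammary carcinoma line. They are the regulators Nfe2l2 and Keap1, the glutathione genes Gclc, Gclm, Slc7a11 and Gsr, the thioredoxin genes Txnrd1 and Srxn1, and the detoxifying enzymes Nqo1 and Hmox1. The deposited counts carry Ensembl IDs only, and the symbols are those that came with the definition of the gene set. RNA was measured in 3 samples given 10 µg/mL of isopimaric acid (IPA), a diterpene acid made by plants, over 24 h and in 3 samples with no treatment. All 6 came from the one 4T1 line, grown in the same medium with serum, and the labels give neither a vehicle for the untreated cells nor whether the replicates were separate cultures. P-values therefore set the difference between the groups against a spread among samples within them that may be technical variation.

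NRF2, the product of Nfe2l2, is a transcription factor that binds antioxidant response elements with small MAF partners and switches on genes for glutathione, thioredoxin and quinone metabolism. KEAP1 holds it in the cytoplasm and hands it to a CUL3 ubiquitin ligase for degradation, until oxidants or electrophiles modify KEAP1 cysteines. Much of this control acts on the NRF2 protein, so the mRNA of its target genes is the usual readout of its activity.

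Depth and 1 library bear on every value below. Total counts ran from 3410411 to 43593509 in IPA libraries and from 20257983 to 58924711 in untreated libraries, and IPA replicate 1 was the shallowest of the 6. CPM stands for counts scaled to the library total. Correlations between libraries were taken in log2 CPM after trimmed-mean (TMM) scaling, across the 24935 IDs kept by the filter on low counts. Untreated replicate 2 correlated at 0.779 to 0.811 with the other libraries, which correlated with each other at 0.922 to 0.987. Among those others, the highest correlation of IPA replicate 1 was 0.935, while that of the rest was 0.979 to 0.987. IPA replicate 1 had 0 counts for 10.2% of tested IDs, and untreated replicate 2 for 8.48%. Because untreated replicate 2 stood furthest apart, each fitted fold change is given with and without it. Of the 10 genes, 9 had at least 20 counts in every library, and all 10 passed the filter on low counts. With no ID paired to a symbol beyond these 10, markers of mammary epithelium, of other cells and of the wider pathway were not analysed here.

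Over all 6 libraries, 0 of the 10 genes passed the test at an adjusted p under 0.05 (edgeR quasi-likelihood test, adjusted by Benjamini-Hochberg over 24935 IDs), where 0% of all tested IDs were called in either direction. This count does not show that the genes were unchanged. The coefficient of variation among replicates fitted by edgeR was 0.57 over all 6 libraries and 0.18 without untreated replicate 2. Limma-voom on all 6 libraries called 0 of the 10 and 0 of all tested IDs. DESeq2 called 0 of the 9 to which it gave an adjusted p, beside 22 higher and 63 lower among 18483 tested IDs. At an unadjusted threshold of 0.05 edgeR counted 1560 IDs, 6.26% of all tested, and 0 of the 10 were among them. The median log2 fold change of the 10 was 0.26, beside -0.08 for all tested IDs. A positive value was found for 7 of the 10 and for 45.5% of all tested IDs. Leaving out untreated replicate 2 kept the edgeR count at 0 of 10, while 3.46% of all tested IDs were called. At the unadjusted threshold 5 of the 10 passed there, and 16.8% of all tested IDs did. In that comparison the median of the 10 was 0.07, against -0.04 for all IDs, and 6 of the 10 were positive, beside 45.8% of all tested IDs. Each comparison sets bulk RNA of whole cultures side by side, so a change in RNA per cell and a change in the makeup of the culture cannot be told apart.

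**Figure D1:**
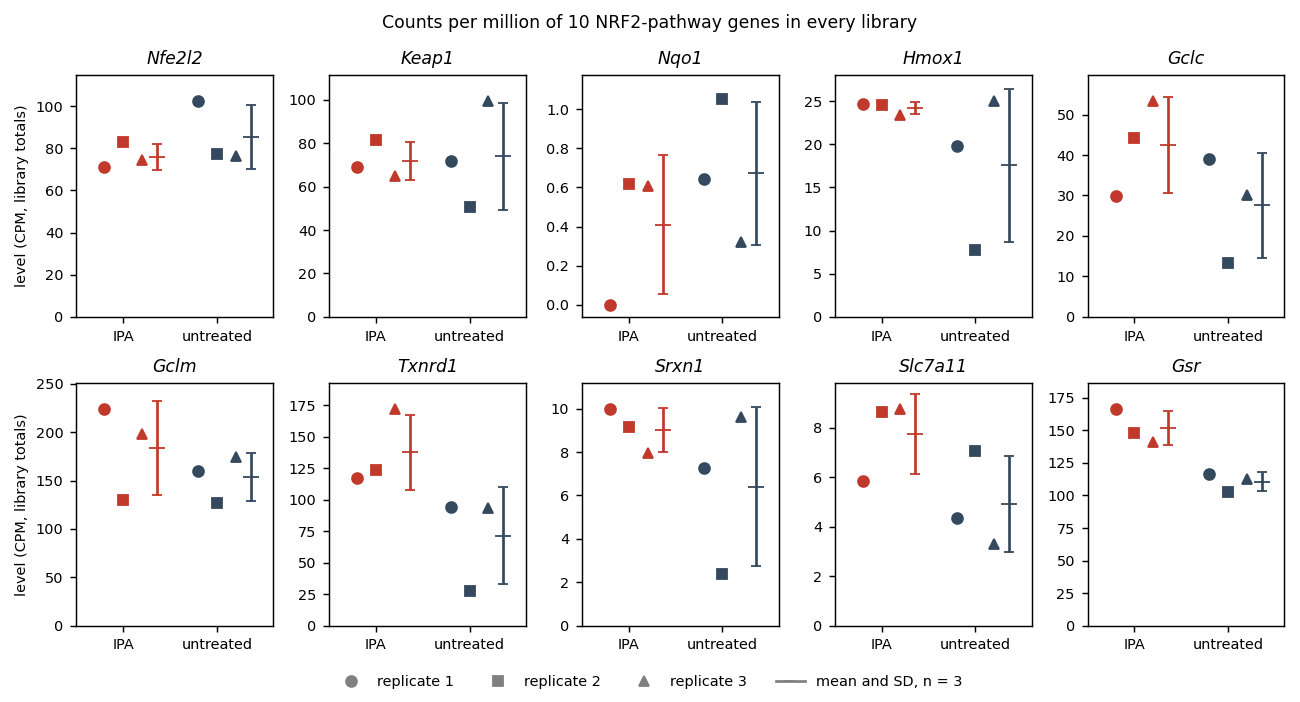
Level of each of the 10 genes in CPM of library totals, with IPA libraries in red on the left and untreated libraries in dark blue on the right of each panel; symbols mark the replicate number, bars the mean and SD of 3 libraries. Untreated replicate 2 (dark square) lies far below the other untreated libraries for Hmox1, Gclc, Txnrd1 and Srxn1, and above them for Slc7a11 and Nqo1.

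The thioredoxin reductase gene Txnrd1 had the largest positive fold change of the 10 over all 6 libraries. It encodes the cytosolic selenoprotein that reduces thioredoxin with NADPH (ENSMUSG00000020250, chr10:82833951-82897724 in GRCm38). Its level was 118, 124 and 172 CPM in IPA replicates 1, 2 and 3, against 94.2, 27.4 and 93.1 CPM in untreated replicates 1, 2 and 3. Every IPA library lay above every untreated library, and untreated replicate 2 lay far below the other untreated libraries. The groups were also apart in this direction in 15.7% of all tested IDs on this scale, and in 9.5% after trimmed-mean (TMM) scaling, where Txnrd1 stayed apart. The means were 138 ± 29.7 CPM with IPA and 71.6 ± 38.3 CPM in untreated cells (SD, n = 3 each), and 93.7 CPM over untreated replicates 1 and 3 alone. The fit, which uses TMM scaling, gave a log2 fold change of 0.80 ± 0.39 (SE), with a 95% interval from -0.12 to 1.72 and an edgeR adjusted p of 0.657.

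The difference was smaller when untreated replicate 2 was left out. Set against the other untreated libraries, Txnrd1 had a log2 fold change of 0.46 ± 0.16, a 1.38-fold difference with a 95% interval from 1.10-fold to 1.72-fold, and an edgeR adjusted p of 0.112. With IPA replicate 1 left out as well, which leaves 2 libraries on each side, the log2 fold change was 0.60 and the edgeR adjusted p was 0.0394, where 2.88% of all tested IDs were called higher. The positive sign of Txnrd1 held in 22 of 22 alternative settings, and 2 of these called it. The other of these was the scaling by library totals without untreated replicate 2, with a log2 fold change of 0.57 and an adjusted p of 0.0465, where 2.7% of all tested IDs were called higher.

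Srxn1, sulfiredoxin, repairs peroxiredoxins that peroxide has over-oxidised (ENSMUSG00000032802, chr2:152105524-152111376). It stood at 9.97, 9.15 and 7.95 CPM in IPA libraries and at 7.26, 2.38 and 9.59 CPM in untreated libraries. The IPA values fell within the span of the untreated values except for replicate 1, at the top of both groups. That library had 34 counts of Srxn1, for a 95% Poisson interval from 6.90 to 13.9 CPM that covers counting error only. Srxn1 differed by 0.34 ± 0.45 on the log2 scale (SE; edgeR adjusted p = 0.804) over all 6 libraries and by -0.04 ± 0.24 (edgeR adjusted p = 0.968) without untreated replicate 2. Its sign thus turned when that library was left out, and the 95% interval without it ran from 0.687-fold to 1.38-fold.

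Slc7a11 differed most between the groups once untreated replicate 2 was left out. It encodes xCT, the cystine-importing chain of the cystine-glutamate antiporter, which feeds cysteine into glutathione synthesis (ENSMUSG00000027737, chr3:50364936-50499087). Its level was 5.86, 8.63 and 8.75 CPM in IPA replicates 1, 2 and 3, against 4.34, 7.06 and 3.31 CPM in untreated replicates 1, 2 and 3. All 3 IPA libraries exceeded untreated replicates 1 and 3, as they did in 20.2% of all tested IDs in CPM and 14.2% after TMM scaling. Untreated replicate 2 stood above IPA replicate 1, so the groups overlapped. IPA replicate 1 had 20 counts, with a Poisson interval from 3.58 to 9.06 CPM that takes in untreated replicate 1.

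Over all 6 libraries the log2 fold change of Slc7a11 was 0.36 ± 0.49 (SE; edgeR adjusted p = 0.809). Leaving out untreated replicate 2 gave 0.98 ± 0.28 with an edgeR adjusted p of 0.0583, a 1.98-fold difference with a 95% interval from 1.32-fold to 2.97-fold. Leaving out untreated replicate 3 instead gave 0.11 (edgeR adjusted p = 0.928). The value without untreated replicate 2 exceeded the log2 fold changes of 97.0% of all tested IDs. That share was 74.8% over all 6 libraries and 58.3% without untreated replicate 3. Slc7a11 passed in 5 of 22 alternative settings. Those calls were made by edgeR without untreated replicate 2 and IPA replicate 1 (log2 fold change 1.14, adjusted p = 0.0139; with Txnrd1, 2 of the 10 genes), and by 3 other settings without untreated replicate 2. Those 3 settings were limma-voom (adjusted p = 0.0144; 2.58% of IDs called higher), DESeq2 (adjusted p = 0.0258; 3.71%) and edgeR on library totals (adjusted p = 0.0373). Limma-voom on all 6 libraries with sample quality weights made the remaining call (adjusted p = 0.026; 1.97%). That fit gave untreated replicate 2 a weight of 0.0388, against 1.27 to 4.37 for the other libraries, and so nearly left it out. Limma-voom on all 6 libraries without these weights gave a log2 fold change of 0.62 (adjusted p = 0.587). In every setting that called Slc7a11, except the library totals and the one without both libraries, it was the 1 gene called. Other edgeR fits without untreated replicate 2 did not call it. These were the fits with RLE size factors (adjusted p = 0.0523), upper-quartile factors (adjusted p = 0.0644) and a block for the replicate number (adjusted p = 0.393).

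Glutamate-cysteine ligase makes the first and rate-limiting step of glutathione synthesis. Its catalytic subunit, Gclc (ENSMUSG00000032350, chr9:77754535-77794489), stood at 29.9, 44.2 and 53.5 CPM in IPA libraries and at 39.1, 13.4 and 30.2 CPM in untreated libraries. IPA replicates 2 and 3 were the highest of the 6, and IPA replicate 1 lay just under untreated replicate 3. Its log2 fold change was 0.47 ± 0.36 (SE; edgeR adjusted p = 0.685), and 0.23 ± 0.20 (edgeR adjusted p = 0.646) without untreated replicate 2. Both values were positive, as in 22 of 22 alternatives, and none of these called Gclc.

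The modifier subunit, Gclm, lowers the enzyme's need for glutamate and its inhibition by glutathione (ENSMUSG00000028124, chr3:122245487-122267215). Its level was 224, 129.6 and 198 CPM in IPA libraries and 159, 127 and 175 CPM in untreated libraries. The groups overlapped, with IPA replicates 1 and 3 the highest and IPA replicate 2 near the lowest untreated library. Between the groups the log2 fold change was 0.03 ± 0.25 (SE; edgeR adjusted p = 0.967), with a 95% interval from 0.685-fold to 1.53-fold. Without untreated replicate 2 it was 0.02 ± 0.18 (edgeR adjusted p = 0.979), and 9 of 22 alternatives turned its sign. A pseudogene, Gm6061, lies inside the Gclm span, and reads shared between them cannot be told apart here.

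Gsr, glutathione reductase, returns oxidised glutathione to its reduced form with NADPH (ENSMUSG00000031584, chr8:33653238-33698162). It stood at 166, 148 and 141 CPM in IPA libraries, against 117, 102 and 113 CPM in untreated libraries. In CPM of library totals all IPA values were above all untreated values, as for Txnrd1 and for no other of the 10, so for 2 of 10 beside 15.7% of all tested IDs. TMM scaling, which raised untreated replicate 2 by its factor of 0.754, put Gsr at 149, 137 and 133 scaled CPM in IPA libraries and 115, 136 and 110.3 scaled CPM in untreated libraries, so that the groups overlapped. The log2 fold change was 0.22 ± 0.19 (SE; edgeR adjusted p = 0.715), and 0.29 ± 0.13 (edgeR adjusted p = 0.255) without untreated replicate 2. A snoRNA and a pseudogene of the RefSeq table lie within the span of Gsr.

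Among the regulators, Nfe2l2 had a level of 71.0, 82.9 and 74.2 CPM in IPA libraries and of 103, 77.2 and 76.2 CPM in untreated libraries (ENSMUSG00000015839, chr2:75675513-75704663). In CPM untreated replicate 1 was the highest and the groups overlapped. After TMM scaling the values were 63.8, 76.6 and 70.2 scaled CPM in IPA libraries and 100.8, 102 and 74.5 scaled CPM in untreated libraries, which still overlapped. The log2 fold change was -0.40 ± 0.21 (SE; edgeR adjusted p = 0.657), and -0.33 ± 0.15 (edgeR adjusted p = 0.25) without untreated replicate 2. Its sign was negative in 22 of 22 alternatives, with 0 calls, and its size depended on scaling, at -0.17 with library totals.

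Keap1, which encodes the adaptor that marks NRF2 for degradation, stood at 68.9, 81.5 and 64.7 CPM in IPA libraries (ENSMUSG00000003308, chr9:21229730-21239332). Untreated libraries had 71.6, 50.5 and 99.6 CPM, a wider span that enclosed the IPA values. After TMM scaling it stood at 61.9, 75.3 and 61.2 scaled CPM in IPA libraries and 70.4, 67.0 and 97.4 scaled CPM in untreated libraries, so that IPA replicates 1 and 3 lay below all untreated libraries. Its log2 fold change was -0.24 ± 0.23 (SE; edgeR adjusted p = 0.726) over all libraries and -0.36 ± 0.15 (edgeR adjusted p = 0.223) without untreated replicate 2. As for Nfe2l2, the sign was negative in 22 of 22 alternatives and none called it, but the value shrank to -0.04 with library totals and to -0.04 without untreated replicate 3.

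Hmox1 encodes the inducible haem oxygenase, which breaks haem into biliverdin, iron and carbon monoxide (ENSMUSG00000005413, chr8:75093618-75100593). Its level was 24.6, 24.5 and 23.4 CPM in IPA libraries and 19.8, 7.70 and 25.1 CPM in untreated libraries. The IPA libraries were within 1.05-fold of each other, whereas the untreated libraries spanned 3.25-fold. Over all 6 libraries the log2 fold change was 0.30 ± 0.34 (SE; edgeR adjusted p = 0.775). It was -0.01 ± 0.18 (edgeR adjusted p = 0.995) without untreated replicate 2, with a 95% interval from 0.769-fold to 1.29-fold. Other settings without untreated replicate 2 gave from -0.03 (limma-voom) to 0.10 (library totals), so the sign there depended on the setting.

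Nqo1, the NADPH quinone reductase often used as a marker of NRF2 activity, was close to the limit of these libraries (ENSMUSG00000003849, chr8:107388225-107403205). Reads of Nqo1 numbered 0, 27 and 25 in the IPA libraries, and 13, 62 and 17 in the untreated libraries. As levels these were 0, 0.619 and 0.609 CPM with IPA and 0.642, 1.05 and 0.322 CPM in untreated cells, which overlap. The 0 of IPA replicate 1 allows up to 0.880 CPM, the worth of 3 counts, or 1.08 CPM by the Poisson interval used above, and at the mean level of the other IPA libraries 2.10 counts would be expected there. The difference of -0.81 ± 0.99 on the log2 scale (SE; edgeR adjusted p = 0.790) turned to 0.12 ± 0.72 (edgeR adjusted p = 0.968) without untreated replicate 2. The 95% interval of that second value ran from 0.382-fold to 3.07-fold.

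**Figure D2:**
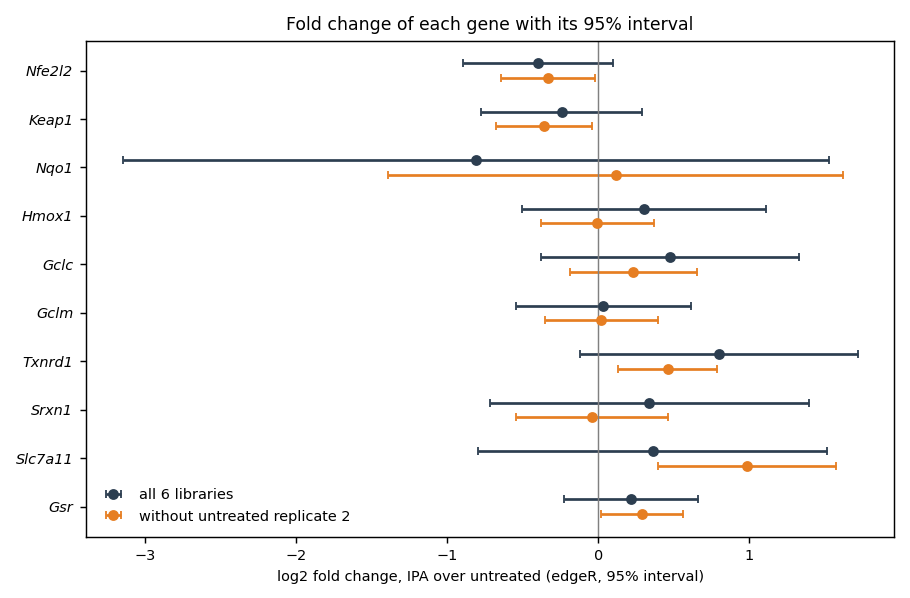
Log2 fold change of each gene, IPA over untreated, with its 95% interval from edgeR, over all 6 libraries (dark blue) and without untreated replicate 2 (orange). All 10 dark blue intervals include 0. The orange intervals of Nfe2l2, Keap1, Txnrd1, Slc7a11 and Gsr do not, though none of them passed after adjustment over all tested IDs. Of all tested IDs, 16.8% had an unadjusted edgeR p under 0.05 without untreated replicate 2.

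With untreated replicate 2 left out, the 95% intervals of 5 genes did not include 0. Txnrd1, Slc7a11 and Gsr were higher with IPA, and Nfe2l2 and Keap1 were lower. These intervals are not adjusted for the number of IDs tested, and 16.8% of all tested IDs had an unadjusted edgeR p under 0.05 there. Hmox1, Gclm and Srxn1 had log2 fold changes of -0.01, 0.02 and -0.04 there, and their 95% intervals lay between 0.687-fold and 1.38-fold.

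Untreated replicate 2 was the lowest of the 6 libraries in CPM for 7 of the 10 genes and the highest for Nqo1. After TMM scaling it was the lowest for 4, Gclc, Hmox1, Srxn1 and Txnrd1, and the highest for 3, Nfe2l2, Nqo1 and Slc7a11. Relative to the mean of untreated replicates 1 and 3, its CPM was 0.282-fold for Srxn1, 0.292-fold for Txnrd1, 0.343-fold for Hmox1 and 0.386-fold for Gclc. It was 1.84-fold for Slc7a11 and 2.18-fold for Nqo1. The departures of this library thus ran in opposite directions for different genes, and a single scaling factor cannot remove them. What set this library apart was not tested.

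Ratios of counts within a library do not depend on scaling between libraries, and 5 were formed after the counts had been seen. Slc7a11 over Gclc was 0.196, 0.195 and 0.164 in IPA libraries, against 0.111, 0.529 and 0.110 in untreated libraries. The IPA libraries lay close together, above untreated replicates 1 and 3 and below untreated replicate 2. Gclc over Gclm, the catalytic over the modifier subunit, was 0.134, 0.341 and 0.270 in IPA libraries and 0.245, 0.105 and 0.173 in untreated libraries, with IPA replicate 1 among the untreated values. Nfe2l2 over Keap1 was 1.03, 1.02 and 1.15 in IPA libraries, inside the untreated values of 1.43, 1.53 and 0.765. The spread of this ratio was 0.0716 in IPA libraries and 0.416 in untreated libraries (SD, n = 3 each). Txnrd1 over Gsr was 0.707, 0.834 and 1.22 in IPA libraries and 0.808, 0.268 and 0.825 in untreated libraries, which overlap. Srxn1 over Txnrd1 was 0.0848, 0.0740 and 0.0462 in IPA libraries and 0.0770, 0.0867 and 0.103 in untreated libraries, which also overlap. None of the 5 ratios passed a two-sided exact permutation test on log2 ratios (lowest p = 0.2; adjusted over the 5, lowest p = 0.667), and 3 samples against 3 cannot give a p below 0.1.

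**Figure D3:**
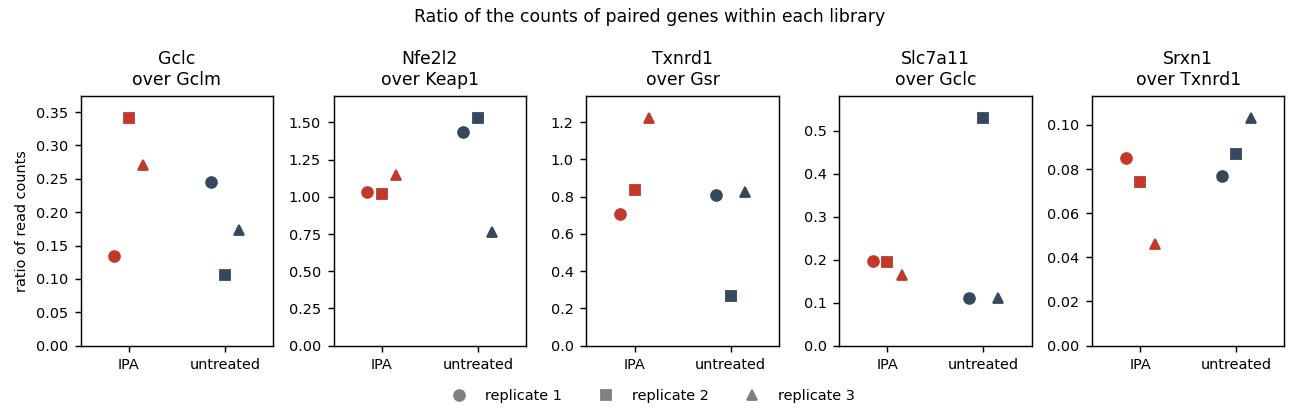
Ratio of the read counts of the named genes within each library, with IPA libraries in red on the left and untreated libraries in dark blue on the right of each panel; symbols mark the replicate number and all axes start at 0. The groups overlap in each of the 5 panels, and untreated replicate 2 (dark square) lies at 0.529 for Slc7a11 over Gclc, far above the others.

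Summed over the 10 genes, the level was 718, 653 and 744 CPM in IPA libraries and 616, 416 and 625 CPM in untreated libraries. TMM scaling gave 645, 604 and 703 scaled CPM in IPA libraries and 605, 551 and 611 scaled CPM in untreated libraries, so the sums overlapped. Gclm, Gsr and Txnrd1 together made up 61.5% to 70.7% of the summed counts in IPA libraries and 60.1% to 61.7% in untreated libraries, and therefore dominate any total. Levels of different genes are not ranked here, because no transcript lengths were at hand and counts grow with length. A shorter protein-coding gene, Eid3, and a lncRNA lie within the Txnrd1 span. How reads in such overlaps were counted is not stated in the labels, so the count of Txnrd1 may hold or lack reads of that stretch.

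**Figure D4:**
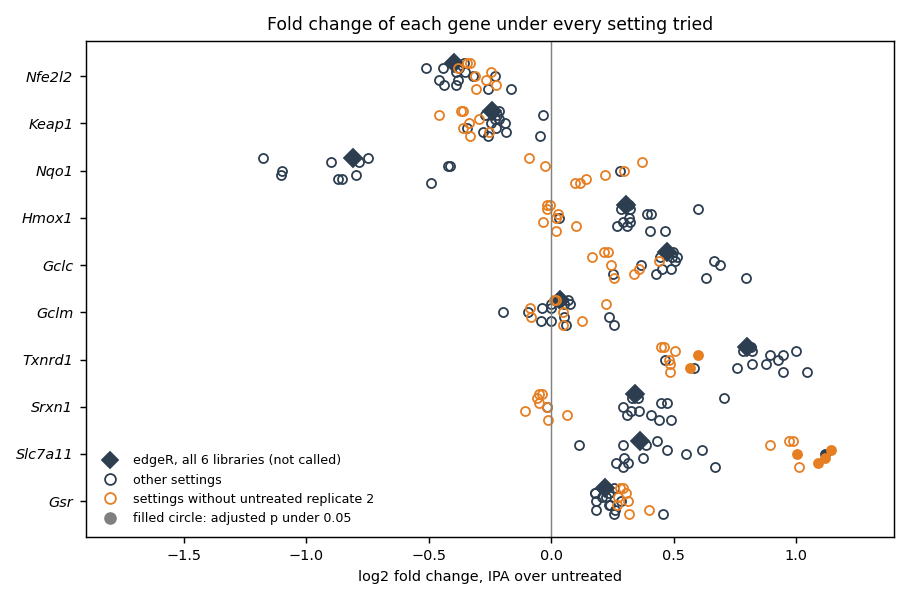
Log2 fold change of each gene, IPA over untreated, under edgeR on all 6 libraries (diamond) and each alternative setting (circles; orange where untreated replicate 2 was left out; filled where the adjusted p was under 0.05). Txnrd1, Slc7a11, Gclc and Gsr stay right of 0 and Nfe2l2 and Keap1 left of it in all settings shown, while Nqo1, Hmox1, Gclm and Srxn1 cross it.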

How the data were processed

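The authors deposited whole-number read counts, not normalized, for each Ensembl ID in 6 RNA-seq libraries, per the file headers and values. Per the submitters' processing notes the builds were GRCm38 and mm10; the aligner, the counter, the annotation and the handling of strand were not given in the sources used here. Total RNA was extracted with Trizol, per the labels' protocols. Treated columns carry a shorter abbreviation than the sample titles and were matched by it and the number.

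Counts were tested with the robust quasi-likelihood F-test of edgeR 4.0.16 in R 4.3.3, with TMM normalization, filterByExpr (24935 IDs kept) and Benjamini-Hochberg adjustment over all of them. The standard error was the log2 fold change divided by the square root of F. CPM used library totals unless called scaled. The floor of 3 counts was 0.0688 to 0.880 CPM in IPA libraries and 0.0509 to 0.148 CPM in untreated libraries; floors and Poisson intervals cover counting error only. On simulated data the procedure missed most planted changes with all 6 libraries. It found most of them without untreated replicate 2, but with a larger share of false calls than an adjusted p under 0.05 allows. Adjusted p-values near 0.05 without untreated replicate 2 may therefore be too low.

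Positions came from a RefSeq table of GRCm38.p6, which matched 10 of 10 genes by symbol. It has 0 rows with an Ensembl ID, so the further pathway and cell-marker lists, written by symbol, were not analysed here, nor were promoter sequences. All 10 genes were named; genes and lists were chosen with earlier results of these data known. Alternatives were DESeq2 1.42.0, limma-voom (limma 3.58.1), other normalizations and filters, a replicate block, and left-out samples.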

Additional observations from a re-analysis of the deposited data

How the results depend on the processing

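Across 217 tested values of single genes under 22 alternatives, 182 kept their sign and side of the threshold, 7 passed it (Slc7a11 in 5, Txnrd1 in 2) and 28 changed sign, none of which passed. DESeq2 gave Nqo1 no adjusted p. Of those that changed sign, Nqo1 gave log2 fold changes of 0.28 with limma-voom quality weights and, without untreated replicate 2, 0.12 (edgeR), 0.29 (limma-voom), 0.22 (library totals), 0.14 (RLE), 0.10 (upper quartile) and 0.37 (also without IPA replicate 1). Hmox1 gave, without untreated replicate 2, -0.00541 (edgeR), -0.0339 (limma-voom), -0.0170 (upper quartile) and -0.0187 (replicate block). Gclm gave -0.0378 with limma-voom, -0.198 with quality weights, -0.00261 with upper-quartile factors, -0.0015 with a filter of 1 CPM in 3 samples, -1.93e-05 with the replicate block, -0.0939 without IPA replicate 1, -0.0409 without IPA replicate 3 and, without untreated replicate 2, -0.0875 (also without IPA replicate 1) and -0.0842 (limma-voom). Srxn1 gave -0.0191 with quality weights and, without untreated replicate 2, -0.0386 (edgeR), -0.0509 (also without IPA replicate 1), -0.0169 (DESeq2), -0.109 (limma-voom), -0.0132 (RLE), -0.0505 (upper quartile) and -0.0600 (replicate block). With 1 sample left out at a time the values ran from -1.18 to 0.12 for Nqo1, -0.00541 to 0.600 for Hmox1, -0.0939 to 0.237 for Gclm and -0.0386 to 0.704 for Srxn1, and, with no change of sign, from -0.51 to -0.26 for Nfe2l2, -0.36 to -0.04 for Keap1, 0.23 to 0.79 for Gclc, 0.46 to 1.04 for Txnrd1, 0.11 to 0.98 for Slc7a11 and 0.18 to 0.29 for Gsr.

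Over all IDs, higher and lower calls numbered 22 and 63 with DESeq2, 492 and 755 with quality weights, and 1 and 0 with library totals or no filter. The quality weights nearly left out untreated replicate 2, with a weight of 0.0388. Leaving out 1 sample gave 0 to 322 higher and 0 to 564 lower, every count above 0 being without untreated replicate 2. That library left out, there were 634 and 660 with DESeq2, 660 and 1009 with limma-voom, 691 and 327 with library totals, 364 and 481 with RLE factors, 309 and 581 with upper-quartile factors, 136 and 202 with the replicate block, and 719 and 763 without IPA replicate 1 as well. Of the 10 genes, 1 was higher with quality weights, 2 without untreated replicate 2 and IPA replicate 1, and, without untreated replicate 2, 1 with DESeq2, 1 with limma-voom and 2 with library totals; 0 were lower. Beyond the left-out libraries, the cause was not tested. Library totals moved the median log2 fold change of all IDs from -0.08 to 0.13; relative to it every sign of the 10 in the main comparison stayed.

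With the replicate block over all 6 libraries, 0 IDs and 0 of the 10 genes were called. Replicates 1, 2 and 3 of the 2 groups deviated together with r = -0.0771, 0.0183 and 0.161, and 3 of 6 samples correlated best with their own number. Untreated replicate 2, which stood apart, enters the group mean from which these deviations were taken, so the check cannot exclude pairing. The main fit did not pair the samples by number. Depth limits Nqo1 most, with 0 counts in IPA replicate 1, where Slc7a11 had 20 and Srxn1 34.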
